A study of Mus musculus with 6 samples.

Results

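The gamma subunits of heterotrimeric G proteins were followed in mouse long-term haematopoietic stem cells (LT-HSCs), the self-renewing cells from which all blood lineages descend, through 5 genes: Gng2, Gng5, Gng10, Gng11 and Gng12. These 5 were found by symbol among the 14986 genes of an expression table from 6 libraries. The members were chosen by having an expression value in the table, and they were picked when the lower FPKM of Gng11 in the knockout libraries was already known, so that difference is given as a description. Of the 12 mouse gamma genes searched for, 3 more have a row, Gng3, Gng7 and Gngt2. They stood at lower levels and are described beside the 5.

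Of the libraries, 3 carry the label wild type and 3 the label Zcchc8 KO, each made from 1500 LT-HSCs sorted from lineage-depleted bone marrow, with cDNA amplification before sequencing of polyadenylated RNA. ZCCHC8 holds together the nuclear exosome targeting complex, which delivers short-lived nuclear RNA to the exosome for decay. The comparison asks what its loss changes in the stem cell transcriptome. The sources used here do not give the allele, any Cre driver, the strain, the age of the mice or the surface markers of the sort. Nor do they state whether replicates were separate animals, so a p-value here reflects the spread among these libraries, which may be only technical.

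A heterotrimeric G protein consists of an alpha subunit that binds GTP and a tight pair of beta and gamma subunits. When a receptor of the seven-pass membrane class is engaged by its ligand, the alpha subunit exchanges GDP for GTP, and the alpha and the beta-gamma parts both go on to act on effectors such as phospholipase C beta, phosphoinositide 3-kinase gamma and adenylyl cyclases. The gamma subunit is a small protein that is anchored in the membrane by a lipid. The lipid is added to a cysteine in the last box of residues of the protein (the CaaX box), as a farnesyl group in the Gng11 product and as a geranylgeranyl group in the products of Gng2, Gng5, Gng10 and Gng12. In blood stem cells, receptors of this class read chemokines, sphingosine 1-phosphate and prostaglandins that govern homing and retention in the marrow.

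The coding ends of the 5 genes are shown because they carry this lipid box, the feature that sets Gng11 apart from the other members. Each line gives the last 60 coding bases, 5′ to 3′ on the coding strand, with the 4 codons of the CaaX box in capitals and the stop codon last, from the GENCODE M21 transcripts of GRCm38.
Gng2: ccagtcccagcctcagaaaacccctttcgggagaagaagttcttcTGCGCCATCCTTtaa
Gng5: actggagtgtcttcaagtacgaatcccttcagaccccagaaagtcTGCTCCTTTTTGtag
Gng10: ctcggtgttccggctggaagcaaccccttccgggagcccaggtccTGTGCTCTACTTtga
Gng11: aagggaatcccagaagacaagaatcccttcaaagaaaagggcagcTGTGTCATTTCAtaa
Gng12: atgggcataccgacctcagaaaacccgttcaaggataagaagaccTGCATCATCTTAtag
All 5 boxes open with a cysteine codon (TGC or TGT). The last codon of the box is TCA in Gng11, a serine codon, and CTT, TTG, CTT and TTA in Gng2, Gng5, Gng10 and Gng12, which are leucine codons. Each stretch lies within 1 exon, at chr14:19875807-19875866 (minus strand) for Gng2, chr3:146503326-146503385 for Gng5, chr4:59039293-59039352 for Gng10, chr6:4008101-4008160 for Gng11 and chr6:67017530-67017589 for Gng12 (plus strand for these 4). Over the whole coding sequence Gng11 was the member least like the others, with 50.8% identical bases to Gng10, 52.0% to Gng5, 53.8% to Gng2 and 55.1% to Gng12. The pairs without Gng11 ran from 56.0% (Gng5 and Gng12) to 71.3% (Gng2 and Gng12).

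The 5 genes lie at separate places, and they differ in how far other annotated genes reach into them. Gng11 (ENSMUSG00000032766.9, chromosome 6, 4003904 to 4008445, plus strand) has 2 exons with 919 bases in all and shares no exon base with another gene. Its neighbour Gngt1, a gamma gene of rod photoreceptors, ends 6467 bases before it on the same strand and has no row in the table used here. Gng5 (ENSMUSG00000068523.12, chromosome 3, 146499807 to 146505572, plus strand) also shares no exon base. Gng10 (ENSMUSG00000038607.12, chromosome 4, 59035088 to 59041903, plus strand) shares 72.0% of its exon bases with Gm20503, an annotated same-strand coding gene without a row in the table, so the reads given to Gng10 are uncertain. Gng12 (ENSMUSG00000036402.13, chromosome 6, 66896397 to 67021350, plus strand) shares 2.64% of its exon bases with an opposite-strand transcript. Gng2 (ENSMUSG00000043004.13, chromosome 14, 19872559 to 19977627, minus strand) shares 20.4% with the opposite-strand noncoding gene Gm48283, and use of strand in counting is not given in the sources used here. Gng2 and Gng5 each have an annotated processed pseudogene, Gng2-ps1 and Gng5-ps, neither with a row.

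Levels are in FPKM, fragment counts scaled by gene length and by library depth, which allows genes of different length to be compared. The reads behind the table came to 18059325 to 18909214 in the wild-type libraries and 18963364 to 25709644 in the KO libraries, recovered from the values themselves, and between 389 and 4051 of them fell on a member in a library, so counting error was small beside the spread between replicates. Zcchc8 itself was not lower in the libraries labelled KO, at 8.93, 5.24 and 5.16 FPKM in the wild-type libraries and 10.4, 5.54 and 5.92 FPKM in the KO libraries; a sum over all exons cannot show a deleted exon, so the labels stand unchecked. All 18 LT-HSC marker genes searched for had a row, with a summed level of 726 to 768 FPKM in the wild-type libraries and 572 to 604 FPKM in the KO libraries.

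Gng11 had the highest FPKM of the gamma genes in each of these libraries. Averaged over the wild-type libraries it ranked 302 of the 14986 genes by level. In each of the 6 libraries it exceeded Gng10, the next in order, by 3.52- to 14.9-fold. As Gng10 shares 72.0% of its exon bases with Gm20503, its level, its place in the order and this margin are uncertain. Below Gng11 the order was Gng10, Gng5, Gng12 and Gng2, and neighbours in it did not separate in every library: Gng10 exceeded Gng5 in 5 of 6 libraries, Gng5 exceeded Gng12 in 4 of 6, and Gng12 exceeded Gng2 in 4 of 6.

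Gng11 measured 222, 213 and 233 FPKM in the wild-type libraries 1 to 3. In the KO libraries 1 to 3 it measured 67.8, 111 and 105 FPKM. The groups did not overlap, as they did not for 15.2% of all tested genes, and KO library 1 was the lowest of all. The means were 222.6 ± 10.2 and 94.6 ± 23.5 FPKM (SD, n = 3), a 2.35-fold lower level in KO and a log2 change of -1.26 ± 0.18 (SE) on the log2(FPKM + 1) scale, which understates changes of low genes. The adjusted p was 0.0321 in limma over 11837 tested genes, those with a mean of at least 1 FPKM. Gng11 was thus 1 of the 6 genes that passed as lower, or 0.0507% of those tested, and the 1 member of 5 to pass. Since the fall was known when the genes were chosen, nothing is read from that count.

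With any 1 library left out the log2 change ran from -1.39 to -1.04; the call held without KO library 1 or 2, and ended without wild-type library 1, 2 or 3 (limma adjusted p = 0.126, 0.132 and 0.141) or KO library 3 (0.0687). It also ended with no expression filter (0.0572), without the variance trend (0.261), with a block for the replicate number (0.0750) and in limma-voom on recovered reads (0.0991). The exact permutation test of Gng11 alone gave p = 0.1 (two-sided), the smallest that 3 libraries against 3 allow.

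**Figure D1:**
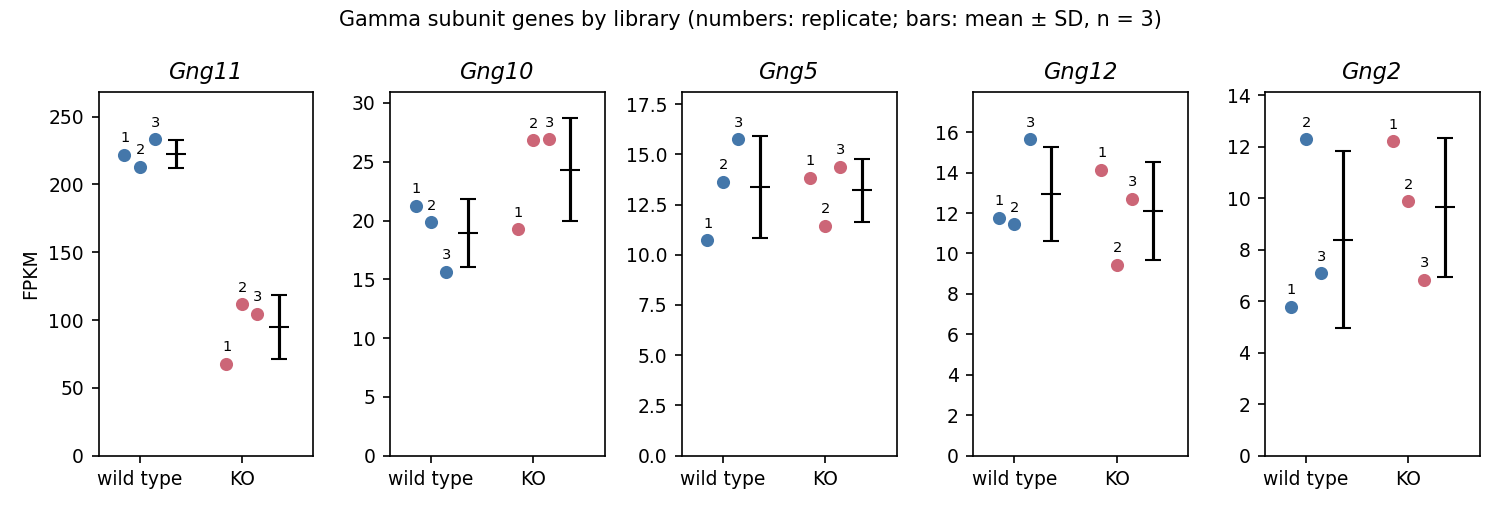
FPKM of the 5 gamma subunit genes in each library (points, numbered by replicate; every axis starts at 0 and has its own range), with the mean and SD of the 3 libraries of a group beside them. The KO libraries of Gng11 lie between 67.8 and 111 FPKM and the wild-type libraries between 213 and 233 FPKM, while the groups overlap for the other 4 genes.

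None of the other 4 members passed, and in each the groups overlapped. Gng10, a widely expressed gamma subunit, stood at 21.2, 19.8 and 15.7 FPKM in the wild-type libraries and 19.3, 26.8 and 26.9 FPKM in the KO libraries. Its KO libraries 2 and 3 lay above every wild-type library and KO library 1 lay among them (log2 change 0.34, 95% interval -0.13 to 0.82, limma adjusted p = 0.667). Gng5, also found in most tissues, stood at 10.7, 13.6 and 15.7 FPKM and at 13.8, 11.4 and 14.4 FPKM. The KO libraries fell within the wild-type range (log2 change -0.01, 95% interval -0.51 to 0.50, limma adjusted p = 0.997).

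Gng12 stood at 11.8, 11.4 and 15.6 FPKM in the wild-type libraries and at 14.2, 9.45 and 12.7 FPKM in the KO libraries. KO library 2 was its lowest library and wild-type library 3 its highest (log2 change -0.09, 95% interval -0.64 to 0.45, limma adjusted p = 0.943). Gng2, the gamma subunit most used in biochemical work on beta-gamma signalling, stood at 5.79, 12.3 and 7.08 FPKM and at 12.2, 9.89 and 6.84 FPKM. The spread within each group (SD 3.44 and 2.70 FPKM) was wider than the difference between the group means (8.39 and 9.65; log2 change 0.21, 95% interval -0.53 to 0.95, limma adjusted p = 0.891).

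With Gng11 lower and no call for the other members, the make-up of the gamma subunit mRNA shifted. The 5 genes summed to 271, 270.0 and 287 FPKM in the wild-type libraries and to 127, 169 and 165 FPKM in the KO libraries. Without Gng11 the sums were 49.5, 57.2 and 54.1 FPKM in the wild-type libraries and 59.5, 57.6 and 60.8 FPKM in the KO libraries. The whole of the lower total thus lay in Gng11. Gng11 made up 81.8%, 78.8% and 81.2% of the sum in wild type and 53.3%, 65.9% and 63.2% in KO, where it was still the largest share in each library. Gng10 made up 6.88% ± 1.26 of the sum in the wild-type libraries and 15.8% ± 0.567 of it in the KO libraries (SD, n = 3). These shares are a description, since they rest on the same difference in Gng11. They also carry the uncertainty in the reads given to Gng10.

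**Figure D2:**
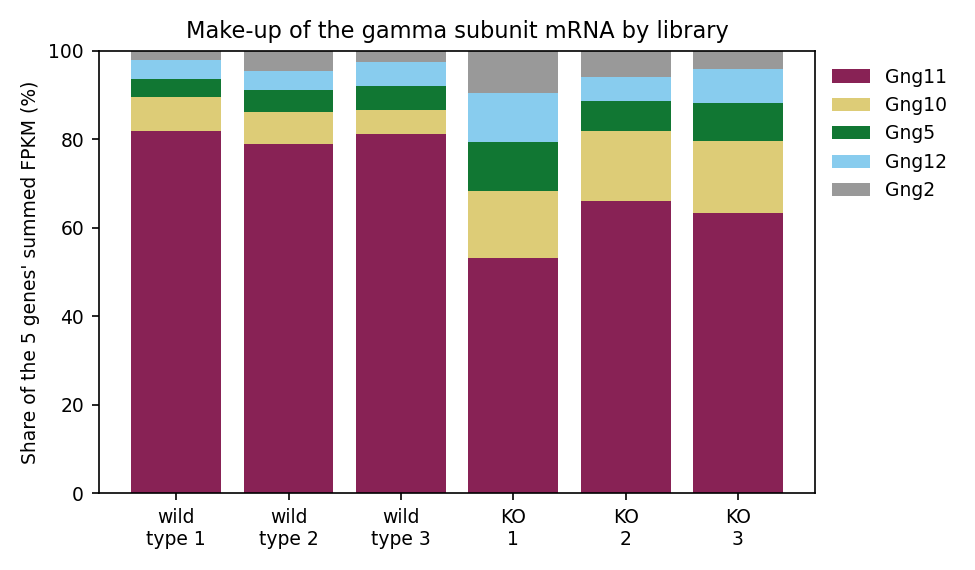
Share of each gene in the summed FPKM of the 5 gamma subunit genes (vertical axis, percent), with 1 bar per library. The Gng11 share lies between 78.8% and 81.8% in the wild-type libraries and between 53.3% and 65.9% in the KO libraries.

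A ratio of 2 genes within a library does not depend on how libraries were scaled. The ratios of Gng11 to the other members are a description too, as they rest on the Gng11 difference known when the genes were chosen. The ratio of Gng11 to Gng10 was 10.4, 10.7 and 14.9 in wild type and 3.52, 4.16 and 3.89 in KO (log2 difference -1.62 ± 0.18, SE). The ratio to Gng5 was 20.7, 15.6 and 14.8 in wild type and 4.90, 9.74 and 7.27 in KO (log2 difference -1.26 ± 0.32). The ratio to Gng12 was 18.9, 18.6 and 14.9 in wild type and 4.79, 11.8 and 8.23 in KO (log2 difference -1.16 ± 0.39). For these 3 the groups did not overlap.

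The ratio to Gng2 was 38.3, 17.3 and 32.9 in wild type and 5.54, 11.3 and 15.3 in KO (log2 difference -1.50 ± 0.56), also without overlap, though wild-type library 2 came close to KO library 3. With 3 libraries against 3 an exact two-sided permutation test can give no p below 0.1, so no test of these 4 ratios could pass a threshold of 0.05.

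**Figure D3:**
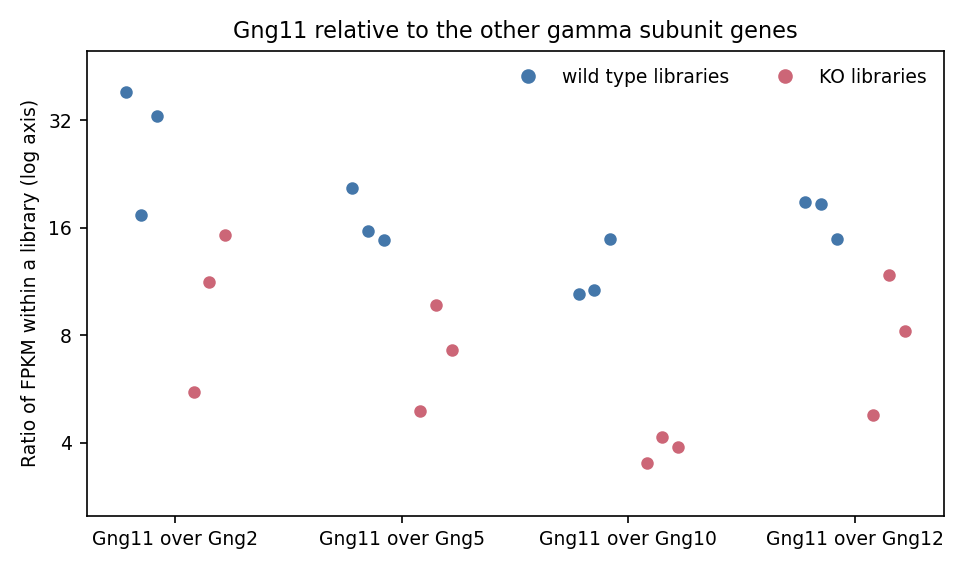
Ratio of the FPKM of Gng11 to that of each other member within a library (vertical log axis), for the 3 wild-type and the 3 KO libraries. For all 4 ratios every KO point lies below every wild-type point, with the closest approach for Gng2, at 15.3 in KO and 17.3 in wild type.

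The remaining gamma genes were low. Gng3, a neuronal gamma subunit, stood at 2.73, 2.20 and 4.73 FPKM in the wild-type libraries and 0.308, 0.160 and 1.72 FPKM in the KO libraries. Gngt2, known from cone photoreceptors, went the other way by value, with 2.42, 2.36 and 2.42 FPKM in the wild-type libraries and 5.49, 3.32 and 6.09 FPKM in the KO libraries. The groups did not overlap for either, and neither passed (limma adjusted p = 0.378 and 0.500). Gng7, a gamma subunit of the striatum, was listed at 0 in wild-type library 2 and KO library 1, and otherwise stood between 0.975 and 5.08 FPKM (limma adjusted p = 0.737). Of the 8 gamma genes with a row, 1 passed, and 2 were lower (Gng11 and Gng3) and 1 higher (Gngt2) at an unadjusted p of 0.05, which 4.33% of all tested genes reached as lower and 4.87% as higher, 9.2% in all. This count of 3 went to 1 without wild-type library 3, with a filter at 5 FPKM and with voom.

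Gnb1 was the most abundant of the 4 beta genes with a row, the partners of the gamma subunits. It stood at 306, 326 and 316 FPKM in the wild-type libraries and at 278, 276 and 242 FPKM in the KO libraries. Its groups did not overlap, but the difference did not pass (log2 change -0.25 ± 0.09, SE; limma adjusted p = 0.402). Gnb2 (14.9 ± 2.79 FPKM in the wild-type libraries and 19.8 ± 5.60 in the KO ones, SD, n = 3), Gnb4 (4.72 ± 1.26 and 5.98 ± 2.61) and Gnb5 (4.33 ± 3.02 and 2.69 ± 1.63), the partner of a subgroup of RGS proteins, were low and did not pass. Gng11 alone amounted to 0.725, 0.652 and 0.737 times the Gnb1 level in wild type and to 0.244, 0.403 and 0.432 times in KO. All 8 gamma genes summed to 0.837 ± 0.0496 times the summed beta genes in wild type and 0.552 ± 0.119 times in KO. mRNA levels do not give the amounts of protein.

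The alpha subunit genes were more evenly spread. The most abundant were Gnai3 (58.4 ± 7.38 FPKM in the wild-type libraries and 64.1 ± 8.72 in the KO ones, SD, n = 3) and Gnai2 (48.9 ± 4.11 and 48.6 ± 4.90), which inhibit adenylyl cyclase, and Gna15 (50.04 ± 10.8 and 38.9 ± 17.3), a blood-cell member of the Gq class. None of the 11 tested alpha genes passed, and 3 had an unadjusted p under 0.05 (9.2% of all tested genes did). That count went to 0 without wild-type library 1 or 2 and to 1 without KO library 3 or with a pseudocount of 0.1. A filter at 5 FPKM also left 1, but only because Gnaz and Gna14 were then no longer tested. Of the 3, Gnaq, the phospholipase C activator, stood at 17.0, 17.6 and 14.4 FPKM in the wild-type libraries and 6.38, 13.8 and 10.4 FPKM in the KO libraries (limma adjusted p = 0.506). Gnaz stood at 5.27, 6.55 and 2.97 FPKM and 2.69, 2.82 and 0.173 FPKM (limma adjusted p = 0.534), while Gna14 was higher by value in KO, with overlapping groups (0.512 ± 0.664 and 2.14 ± 1.20, limma adjusted p = 0.534). The rest, Gna11, Gna13, Gna12, Gnat2 and Gnas, had means from 1.67 to 18.04 FPKM in either group and an unadjusted p above 0.05, while Gnal and Gnat1 were too low to be tested.

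**Figure D4:**
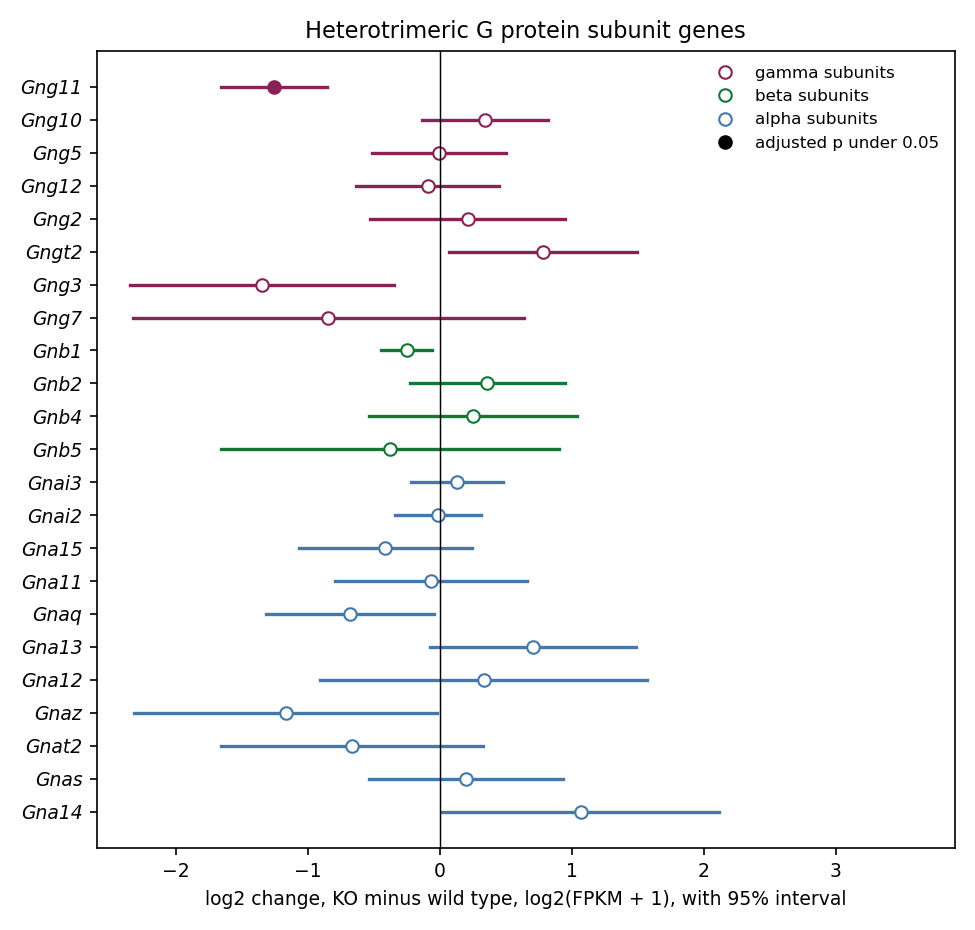
log2 change of each tested gamma, beta and alpha subunit gene (KO minus wild type, on the log2(FPKM + 1) scale) with its 95% interval, ordered by level within each class; filled points passed an adjusted p of 0.05 in limma. Gng11, at -1.26, is the filled point, and the intervals of Gng2, Gng5, Gng10 and Gng12 span 0.

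Of 9 tested genes that process the lipid box or act as chaperones of G protein subunits none passed, and none had an unadjusted p under 0.05. Of all tested genes 0.228% passed and 9.2% had such a p, so an empty count in a list this short says little. Fnta, the alpha subunit that farnesyl and geranylgeranyl transferase share, stood at 32.6 ± 1.46 FPKM in the wild-type libraries and 41.9 ± 6.99 in the KO ones (SD, n = 3), without overlap of the groups (limma adjusted p = 0.578). Fntb, the farnesyl transferase beta subunit, stood at 3.58 ± 0.681 and 2.40 ± 1.10. Rce1, the protease that trims the box after the lipid is added, stood at 29.6 ± 1.67 and 31.6 ± 9.53, and Pdcl, a chaperone of beta-gamma assembly, at 18.6 ± 1.05 and 22.7 ± 8.19. These 9 had a median log2 change of 0.05, and all tested genes one of 0.002.

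Downstream and regulatory genes did not pass either. Among 9 tested beta-gamma effectors none passed and none had an unadjusted p under 0.05, beside 0.228% and 9.2% of all tested genes. Plcb2, a phospholipase C that beta-gamma activates, stood at 11.03 ± 2.60 and 8.29 ± 1.72 FPKM (SD, n = 3). The adenylyl cyclase Adcy7 stood at 9.96 ± 4.05 and 6.55 ± 1.25, and Pik3cg, the phosphoinositide 3-kinase gamma catalytic subunit, at 7.04 ± 1.01 and 8.60 ± 0.874. The 9 effectors had a median log2 change of -0.15. Among 5 tested receptor kinases and arrestins none passed or had an unadjusted p under 0.05, beside the same shares of all tested genes. Grk2, the kinase that beta-gamma brings to the membrane, stood at 15.2 ± 4.64 and 16.7 ± 2.72, Grk6 at 4.67 ± 3.22 and 8.05 ± 0.653, Grk3 at 3.69 ± 0.887 and 2.15 ± 1.44 and the arrestin gene Arrb1 at 4.66 ± 1.49 and 2.88 ± 2.88.

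RGS proteins, which speed the hydrolysis of GTP by alpha subunits, were led by Rgs18, a haematopoietic member, at 126 ± 9.68 FPKM in the wild-type libraries and 113 ± 16.8 in the KO ones (SD, n = 3), and Rgs19, at 51.3 ± 13.04 and 53.6 ± 16.8. None of the 8 tested genes passed or had an unadjusted p under 0.05, beside 0.228% and 9.2% of all tested genes. Rgs12 (4.78 ± 1.86 and 2.69 ± 1.34) and Rgs10 (6.15 ± 2.20 and 10.5 ± 5.62) had the smallest p-values of the list.

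Of 33 tested receptor genes none passed, and 2 were higher and 4 lower in KO at an unadjusted p of 0.05 (9.2% of all tested genes in either direction). Adgrg1, an adhesion receptor marking stem cells and the most abundant of the list, stood at 203, 202 and 219 FPKM in the wild-type libraries and 164, 181 and 181 FPKM in the KO libraries (limma adjusted p = 0.455). F2r, the thrombin receptor, stood at 73.4, 69.7 and 76.9 FPKM and 98.0, 105 and 149 FPKM (limma adjusted p = 0.228). Gpr132, a receptor of oxidised lipids, stood at 4.04 ± 1.40 and 9.96 ± 4.24 FPKM (SD, n = 3; limma adjusted p = 0.405). For Adgrg1 and F2r the groups did not overlap.

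The genes whose pattern over the 6 libraries was most like that of Gng11, by the root mean square difference of centred log2(FPKM + 1) values, were Adam11, an ADAM family member without protease activity (0.157), Castor1, a cytosolic arginine sensor (0.160), Pias3, a SUMO ligase that inhibits STAT3 (0.182), Cln3, a lysosomal membrane protein (0.182), and the transmembrane protein gene Tmem161b (0.184). They were chosen for this likeness, so their lower level in the KO libraries follows from the choice, and none passed over all genes (limma adjusted p from 0.133 to 0.375). No other gamma gene of the 5 was near, at 0.693 for Gng12, 0.699 for Gng5, 0.818 for Gng10 and 0.898 for Gng2. Castor1 stood at 13.4 ± 1.62 and 6.17 ± 1.59 FPKM and Pias3 at 13.6 ± 0.379 and 5.67 ± 1.05 (SD, n = 3). Adam11 (2.03 ± 0.526 and 0.263 ± 0.251) and Tmem161b (4.42 ± 0.693 and 1.05 ± 0.678) were low. Their means were 7.71- and 4.20-fold lower in KO, beside 2.35-fold for Gng11. The likeness of such low genes thus rests in part on the 1 FPKM added before the log.

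Gng11 is also known from platelets and endothelial cells, whose markers were therefore read beside it. In bulk samples fewer cells of a type and less RNA per cell cannot be told apart. Of 22 symbols of the megakaryocyte and platelet list 18 had a row, and they moved both ways. Their summed level was 558 to 653 FPKM in the wild-type libraries and 717 to 770 FPKM in the KO libraries, much of the difference being Pf4, platelet factor 4, at 164, 129 and 195 FPKM in the wild-type libraries and 290.1, 257 and 281 FPKM in the KO libraries. Of the 17 tested markers 8 were higher by value and 9 lower, with a median log2 change of -0.06. Beside Pf4, the markers higher at an unadjusted p of 0.05 were Selp (6.19 ± 1.06 and 11.2 ± 0.550 FPKM, SD, n = 3), Rap1b (46.0 ± 10.4 and 67.1 ± 0.656) and Gp5 (41.1 ± 10.7 and 64.0 ± 13.6). In each of them the groups did not overlap, as in 7 of the 17 tested markers and 15.2% of all tested genes. Nfe2 was lower by value, also without overlap (106 ± 9.83 and 93.9 ± 3.42, unadjusted p above 0.05). Others lower by value, with overlapping groups, included the platelet chemokine gene Ppbp (5.89 ± 1.85 and 1.67 ± 2.77) and Nrgn (24.6 ± 0.669 and 17.9 ± 7.13, unadjusted p above 0.05). None passed, and 4 were higher and 1 lower at an unadjusted p of 0.05, beside 4.87% and 4.33% of all tested genes.

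Of 20 endothelial symbols 12 had a row, summing to 79.6 to 89.9 FPKM in the wild-type libraries and 61.3 to 78.7 FPKM in the KO libraries beside 67.8 to 233 FPKM for Gng11 alone. None of the 7 tested ones passed and 2 were lower at an unadjusted p of 0.05, which 4.33% of all tested genes were. These were the tight junction gene Cldn5 (11.9 ± 7.69 and 3.69 ± 3.54 FPKM, SD, n = 3, groups overlapping) and the guidance receptor gene Robo4 (5.32 ± 0.811 and 2.21 ± 0.175, without overlap). By value 4 of the 7 were lower in KO (Cldn5, Robo4, Tie1 and Ecscr) and 3 higher (Egfl7, Pecam1 and Emcn), with a median log2 change of -0.37. Egfl7 stood between 25.9 and 29.5 FPKM in the wild-type libraries and between 25.1 and 37.0 FPKM in the KO ones, and Tie1 at 23.9 ± 2.90 and 18.3 ± 2.67, while the receptors Kdr, Flt1 and Flt4 were at or under 0.877 FPKM in each library. Markers of all cell type lists here fall outside the fixed naming rule and were named after their values were seen. Of the 18 LT-HSC markers 13 were lower in KO by value and 5 higher (Slamf1, Ly6a, Tek, Fgd5 and Gata2), with a median log2 change of -0.40. At an unadjusted p of 0.05, 10 of them were lower (4.33% of all tested genes), and none passed. The part of these shifts in the Gng11 difference was not tested.

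Other lineage markers differed as well. The 5 eosinophil genes with a row summed to 1.05 to 3.25 FPKM in the wild-type libraries and 170 to 211 FPKM in the KO libraries, and the 9 erythroid ones to 117 to 150.1 FPKM and 437 to 468 FPKM. Of these, 4 of the 5 tested eosinophil genes and 4 of the 8 tested erythroid genes passed as higher, beside 0.177% of all tested genes. In the B cell list the immunoglobulin gene Igkc, at 795 ± 62.7 and 0.451 ± 0.782 FPKM (SD, n = 3), made up most of the sum in the wild-type libraries (816 to 928 FPKM, and 106 to 126 FPKM in the KO libraries), whereas 5 of the 7 tested members were higher in KO at an unadjusted p of 0.05 (4.87% of all tested genes), with a median log2 change of 1.33. Igkc was the only gene of the B cell list to pass (limma adjusted p = 2.08e-06). Granulocyte and monocyte genes summed to 3625 to 3744 FPKM and 4480 to 4863 FPKM, with most of the difference in S100a9 (1386 ± 56.8 and 2003 ± 108), the 1 gene of the list to pass. Of the 11 tested, 4 were higher in KO at an unadjusted p of 0.05 (S100a9, S100a8, Ngp and Camp), beside 4.87% of all tested genes. Lower at that p were 2, beside 4.33%, namely Prtn3 (255 ± 17.9 and 199 ± 16.1) and Mpo (67.5 ± 4.07 and 49.9 ± 4.65). T and NK cell genes summed to 189 to 232 FPKM and 310.2 to 323 FPKM, most of it Nkg7. Their part in the Gng11 difference was not tested either.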

How the data were processed

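The 6 libraries were taken in their groups from the sample titles. Per the submitters' processing notes the tools were fastp, Bowtie2 and featureCounts and the build mm10, with versions not named. The authors deposited FPKM by gene symbol, and treatment of reads with several matches is not given in the sources used here. FPKM times GENCODE M21 exon length gave whole reads within 0.05 for 98.0% of values below 100 reads.

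The 11837 genes averaging 1 FPKM or more were tested on log2(FPKM + 1) with limma 3.58.1 (R 4.3.3; lmFit, eBayes with trend, two-sided), adjusted by Benjamini-Hochberg over them, at 0.05. The test was tested on 5 simulated tables of 11837 genes with 200 changed: 18.8% of those changed by 1 (log2) passed and 61.2% of those changed by 2. Gene counts of lists come from the same fit, with no set test. Identity is from global alignment in Biopython 1.88.

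Members and lists were chosen with earlier results of these data known. Named are the members, all other subunit genes by level, and the 5 genes most like Gng11, leaving out predicted symbols. Each further pathway list (processing, effectors, receptor kinases and arrestins, RGS, receptors) is named by its 3 smallest p and 2 highest levels. Cell type markers follow no such rule and were named after their values were seen. Replicates differed by far more than counting error (chi-square per gene 54.5 to 77.7 on recovered reads). Alternatives changed the pseudocount, filter, scaling, variance trend, block, libraries and test.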

Additional observations from a re-analysis of the deposited data

How the results depend on the processing

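The log2 change of Gng11 stayed between -1.39 and -1.04 under all 16 alternatives, and its call held in 8 of them: pseudocounts of 0.1 and 5, a filter at a mean of 5 FPKM, the 3 other scalings, and removal of KO library 1 or 2. It ended with no filter (-1.26, limma adjusted p = 0.0572), without the variance trend (-1.26, 0.261), with a block for the replicate number (-1.26, 0.0750) and in limma-voom on recovered reads (-1.31, 0.0991), each leaving 0 gamma genes called, as did removal of each wild-type library or KO library 3 (0 to 1 called over the 6 removals; the cause was not tested). Genes called in all went from 27 (21 higher, 6 lower) to 8 (6 and 2) without trend, 11 (10 and 1) with the block and 8 (5 and 3) with voom, to 3 lower with no filter, and to 11 to 19 (8 to 14 higher, 1 to 5 lower) with 1 library removed. Same-numbered libraries did not deviate together (r = 0.024, 0.007 and 0.004 over genes, and not every library correlated best with its own number), so the numbers are not taken as pairs. Gng5 and Gng12 changed sign with 1 library removed, from -0.15 to 0.11 and from -0.21 to 0.060, both near 0. Gng2 ran from 0.006 (without wild-type library 1) to 0.49 (without wild-type library 2) and Gng10 from 0.22 to 0.49, and neither passed under any of the 16. The 4 Gng11 ratios kept their direction under 7 alternatives each. For the removal of a library this was fixed beforehand, since the groups did not overlap in any of the 4. No beta or alpha subunit, processing, effector, receptor kinase, RGS or receptor gene of the lists was called under any of the 16. As only 8 to 32 genes in all were called under them, this says little about these lists. With 389 to 4051 reads on a member in a library, counting error was below the replicate spread.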
